A study of Mus musculus with 8 samples.

Results

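Gm42418 took more counts than any other gene in 7 of the 8 libraries of E-cadHI and E-cadLO tumor cells, and it is described here with 6 further genes that often stand out in RNA libraries. The genes were chosen by symbol from the count table, and Gm42418 was picked on its share of the counts in these same libraries, so that its high share is a description and not a finding. The 7 listed genes are Gm42418, Gm26917, AY036118, Malat1, Neat1, Meg3 and Lars2. Of these, 6 were found among the 31894 genes of the table, and AY036118 was not analysed here.

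The tumor cells came from breast cancer brain metastases (BCBM) in 4 FVB mice, which the labels number 57, 58, 67 and 70. The cells descend from the PyMT mammary tumor model and carry a fluorescent E-cadherin reporter (E-cad-mCFP) and the nuclear label H2B-Dendra2, and the labels give the genotype of all samples as wild type. From the BCBM of each mouse, cells with high (E-cadHI) and with low (E-cadLO) E-cad-mCFP fluorescence were sorted by flow cytometry, and 1 bulk mRNA library was made of each population. There was no untreated or non-tumor group, the single tumor line limits what the 4 mice can represent, and both populations of a mouse come from the same lesion material. Total counts ranged from 9102781 to 15769200 per library, and 3 counts, the limit that a count of 0 allows, correspond to 0.190 to 0.330 CPM (counts scaled to a library of 1e6). The number of genes with at least 1 count was 25216 in the E-cadHI library of mouse 58 and 17081 to 21179 in the others. Cdh1, the gene of E-cadherin itself, was lower in E-cadLO in 3 of 4 mice and higher in mouse 58 (131.6 against 180.9 CPM), and its difference did not pass the test (log2 fold change -0.17, SE 0.33, edgeR adjusted p = 0.809). The sort was made on the reporter protein and not on this mRNA.

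The label under which these genes are grouped, abundant nuclear noncoding RNAs, holds for part of them. Malat1 and Neat1 are long noncoding RNAs that stay in the nucleus, where Malat1 collects in splicing speckles and Neat1 forms the scaffold of paraspeckles. Meg3 is a maternally expressed, imprinted noncoding RNA that is known from neurons and from mesenchymal cells. Lars2 does not belong to the label by type, since it is protein coding and encodes the mitochondrial leucyl-tRNA synthetase. Meg3 does not belong to it by level, with 2 to 147 counts per library. Gm42418 and Gm26917 are annotated as long intergenic noncoding RNAs, but RefSeq lists Gm42418 under the name Rn18s-rs5, a pseudogene related to the RNA of the small ribosomal subunit. Ribosomal RNA has no poly(A) tail, and libraries of mRNA are made so that most of it is left out.

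Gm42418 (ENSMUSG00000098178) lies on chromosome 17 from 39846958 to 39848788 of the GRCm38 build, on the plus strand, as a single exon of 1831 bases. Gm26917 (ENSMUSG00000097971) is a single exon of 3329 bases on the same strand, from 39843013 to 39846341, and 616 bases separate it from Gm42418. In the GENCODE M21 annotation, AY036118 (ENSMUSG00000105361, 39847113 to 39848035) lies wholly within Gm42418 on the minus strand, so that all its 923 bases are the reverse complement of bases 156 to 1078 of Gm42418. A further gene of the minus strand, CT010467.1, spans the whole of Gm42418 from 39846353 to 39848827 and is annotated as ribosomal RNA. The first 1244 bases of Gm42418 occur without a mismatch in the reverse complement of its transcript. Whether counting used the strand is not given in the sources used here, and without it reads of Gm42418 and of its antisense partners cannot be told apart. The stretch where the overlap with AY036118 begins is shown because both genes hold the same bases there, on opposite strands. The capitals mark the bases shared by both, and the 2 lines are reverse complements there.
Gm42418, chr17:39847053-39847202, plus strand: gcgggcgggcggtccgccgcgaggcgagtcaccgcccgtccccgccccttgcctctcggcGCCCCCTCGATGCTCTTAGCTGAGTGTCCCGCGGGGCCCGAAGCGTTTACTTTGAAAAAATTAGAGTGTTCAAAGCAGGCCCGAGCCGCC
AY036118, chr17:39847113-39847202, minus strand: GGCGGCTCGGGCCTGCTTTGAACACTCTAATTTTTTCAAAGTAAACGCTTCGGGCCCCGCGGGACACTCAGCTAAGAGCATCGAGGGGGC

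**Figure D1:**
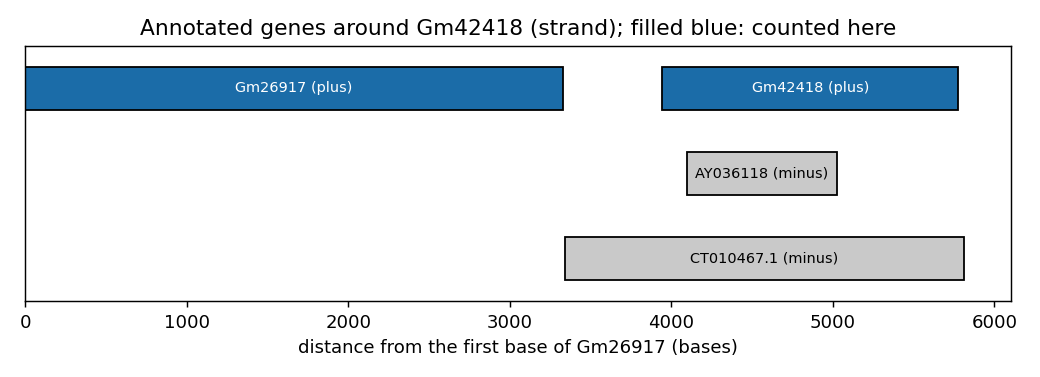
Annotated genes around Gm42418, drawn to scale as the distance in bases from the first base of Gm26917, with the strand in brackets. Gm26917 and Gm42418 (blue) were counted, and AY036118 and CT010467.1 (grey) lie across Gm42418 on the other strand.

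Lars2 (ENSMUSG00000035202) lies on chromosome 9 from 123366927 to 123462666 on the plus strand. Its 3′ untranslated region holds a stretch that is also found in the antisense RNA Gm15564 (ENSMUSG00000086324, chromosome 16, 35966752 to 35983230). Exon 2 of the Gm15564 transcript concerned is 71 bases long (35981725 to 35981795), and 70 of these bases are the same in Lars2 (123462049 to 123462119). The longest run without a mismatch is 52 bases. A search of 141767 annotated transcripts on both strands with 30 of these bases found 3 genes, Lars2, Gm15564 and AA474408. The genome sequence and a reference of ribosomal RNA were not searched, so whether the 30 bases also occur there was not tested. These 30 bases are shown, all in capitals since all are shared, because they are the part of Lars2 that recurs in the other genes. The reads are longer than the run without a mismatch, so that a read across it also holds bases beyond it. As 70 of the 71 exon bases are the same in both genes, these further bases need not tell the genes apart.
Lars2, chr9:123462049-123462078, plus strand: AATTCACCAAGCGTTGGATTGTTCACCCAC
Gm15564, chr16:35981766-35981795, minus strand: AATTCACCAAGCGTTGGATTGTTCACCCAC

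The members differed widely in level. CPM per kilobase (kb) of annotated exon were compared, since longer RNAs give more fragments. In E-cadHI, Gm42418 had 21701 ± 13963 CPM per kb (SD, n = 4), Lars2 507 ± 483, Malat1 233 ± 53.1, Gm26917 15.1 ± 17.1, Neat1 4.90 ± 3.02 and Meg3 0.0757 ± 0.0579. In E-cadLO, Gm42418 had 32310 ± 31044, Malat1 448 ± 202, Lars2 152 ± 107, Gm26917 30.2 ± 33.9, Neat1 7.21 ± 2.93 and Meg3 0.333 ± 0.200 CPM per kb. Gm42418 was above and Meg3 below all other members in every library. Malat1 was above Lars2 in 4 of 4 E-cadLO and 2 of 4 E-cadHI libraries, and Gm26917 was above Neat1 in the same numbers of libraries. The ranges of both pairs over the 8 libraries overlapped, so that these neighbours have no fixed order. Together the 6 genes took between 2.46% and 15.02% of a library, and Gm42418 made up 79.2% to 95.8% of that.

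Gm42418 was at a similar share in most libraries and much higher in both libraries of mouse 58. In E-cadHI it took 2.23%, 7.67%, 2.29% and 3.71% of the counts in mice 57, 58, 67 and 70. In E-cadLO it took 2.999%, 14.4%, 3.93% and 2.35% in the same order. It ranked first in every library except the E-cadLO library of mouse 70, where mt-Cytb, the mitochondrial gene of cytochrome b, was level with it at 2.35%. Wilson intervals on these shares are narrow (for example 2.22% to 2.23% in E-cadHI of mouse 57, 95%) and cover counting error only, since copies of a molecule made by PCR are not independent. The shares of the groups overlapped, and the highest library of each group came from mouse 58.

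Gm26917 was rarer by orders of magnitude. In E-cadHI it had 5.16, 130.5, 15.5 and 49.9 CPM in mice 57, 58, 67 and 70, and in E-cadLO 74.7, 266.3, 42.0 and 19.2 CPM. Mouse 58 was again highest in both groups, and the lowest library had 77 counts. Between 401.4 and 4316 counts of Gm42418 were found for each count of Gm26917, so that the neighbours did not keep a constant ratio.

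Malat1 was higher in E-cadLO than in E-cadHI within every mouse, and whether the groups overlapped depended on the scaling. Its share was 0.116%, 0.205%, 0.174% and 0.154% in E-cadHI of mice 57, 58, 67 and 70, and 0.294%, 0.254%, 0.515% and 0.189% in E-cadLO. By share, the lowest E-cadLO library, of mouse 70, lay below the highest E-cadHI library, of mouse 58. On CPM after TMM scaling the same 2 libraries stood at 2078 and 2043 CPM, and the groups narrowly did not overlap. Malat1 ranked 9th to 36th among all genes in E-cadLO and 29th to 70th in E-cadHI.

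Neat1 had 38.0, 184.2, 111.9 and 72.7 CPM in E-cadHI and 93.1, 205.8, 198.7 and 101.2 CPM in E-cadLO, in mice 57, 58, 67 and 70. Each E-cadLO library was above the E-cadHI library of its mouse, and the ranges overlapped. Mouse 58 was highest in both groups, as it was for Gm42418 and Gm26917.

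Meg3 had 2, 18, 17 and 32 counts in E-cadHI and 98, 15, 64 and 147 counts in E-cadLO, which are 0.134, 1.38, 1.27 and 2.69 CPM against 8.65, 1.65, 4.47 and 9.32 CPM. The E-cadLO libraries of mice 57 and 70 were highest. The 2 counts in E-cadHI of mouse 57 are below the limit of 3, and the ratio of 52.2 in that mouse has an exact 95% interval from 14.1 to 437.4 for counting error alone. In mouse 58 the interval of the ratio, 0.592 to 2.65, includes equality.

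Lars2 was unlike between mice within E-cadHI. Its share there was 0.116%, 1.20%, 0.122% and 0.808% in mice 57, 58, 67 and 70, which is a 10.3-fold range. In E-cadLO it was 0.0508%, 0.331%, 0.167% and 0.126%. The E-cadHI libraries of mice 58 and 70 stood above the other 6 libraries, and the groups overlapped. In E-cadHI of mouse 58, Lars2 was the 4th most abundant gene of all.

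**Figure D2:**
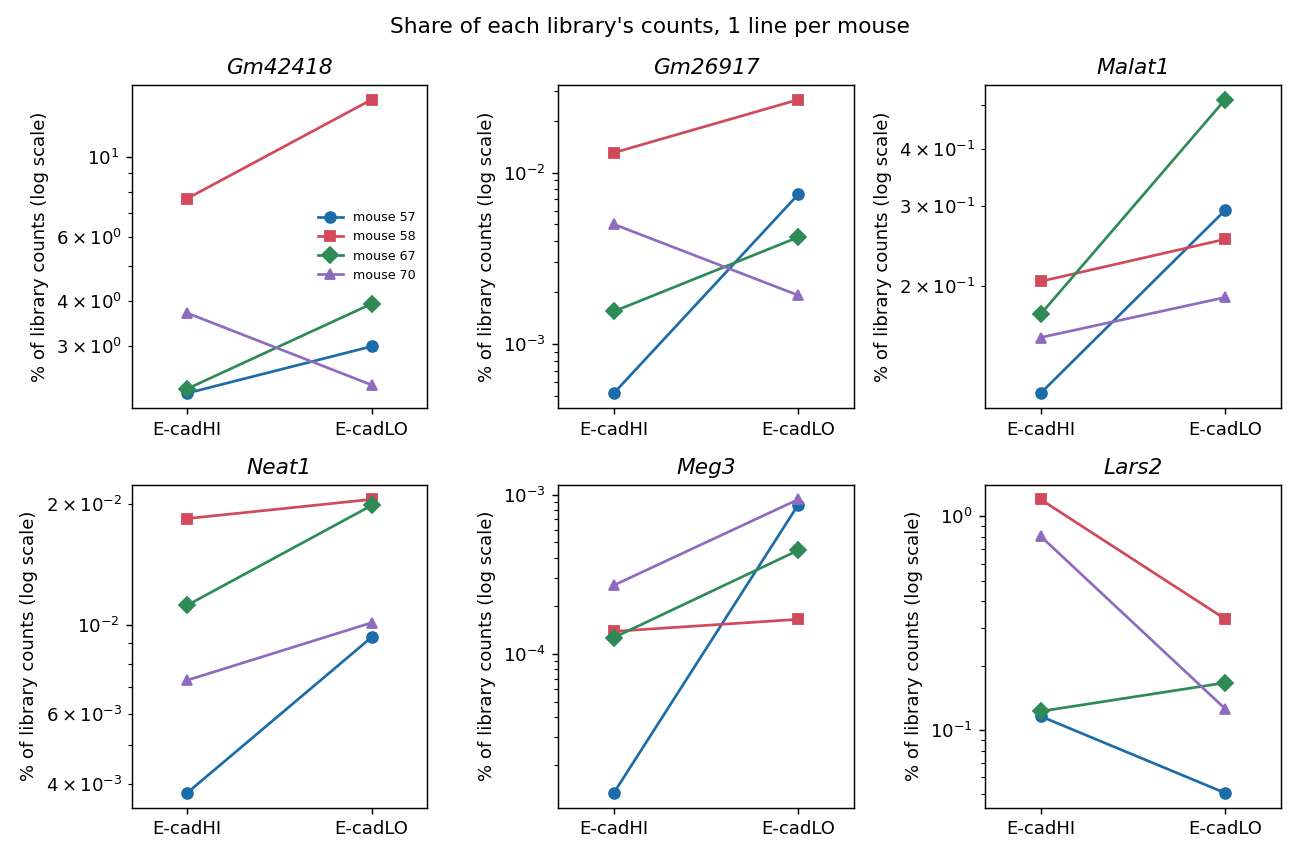
Share of each library's counts in percent (log scale, a separate axis range per gene) for the 6 genes in E-cadHI and E-cadLO, with 1 line per mouse. Malat1, Neat1 and Meg3 are higher in E-cadLO in all 4 mice, Gm42418 and Gm26917 are lower there in mouse 70 only, and Lars2 is higher there in mouse 67 only.

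Other enzymes of the Lars2 family did not share its level. The list of mitochondrial aminoacyl-tRNA synthetases held 17 genes, all tested, of which 5 had a log2 fold change above 0 and 12 below 0, with a median of -0.18 against 0.06 over all 13598 genes tested. None passed edgeR's test. Hars2, Tars2, Rars2 and Fars2, the most abundant after Lars2, had a mean of 60.2 to 89.97 CPM after scaling, against 3713 CPM for Lars2. Their highest library was at 125.6 CPM.

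The counts of Lars2 went with those of Gm15564, the RNA that shares the stretch shown above. In E-cadHI Gm15564 had 4807, 46592, 4335 and 29347 counts in mice 57, 58, 67 and 70, and in E-cadLO 1457, 8219, 6702 and 5225 counts. The number of Lars2 counts for each count of Gm15564 stayed between 3.27 and 3.95 in all 8 libraries (3.62 ± 0.229, SD), while Lars2 itself varied 23.7-fold. Of all other genes tested, Gm15564 had the highest Pearson r with Lars2 over the 8 libraries (0.9997), followed by the microRNA gene Gm23935 (0.995) and by Rpia, which encodes ribose 5-phosphate isomerase (0.967). AA474408, the third gene with the 30 bases, had 17 to 51 counts per library. The handling of reads with several matching genes is not given in the sources used here, so the levels of Lars2 and Gm15564 are uncertain, and how many of these reads come from the shared stretch was not tested.

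**Figure D3:**
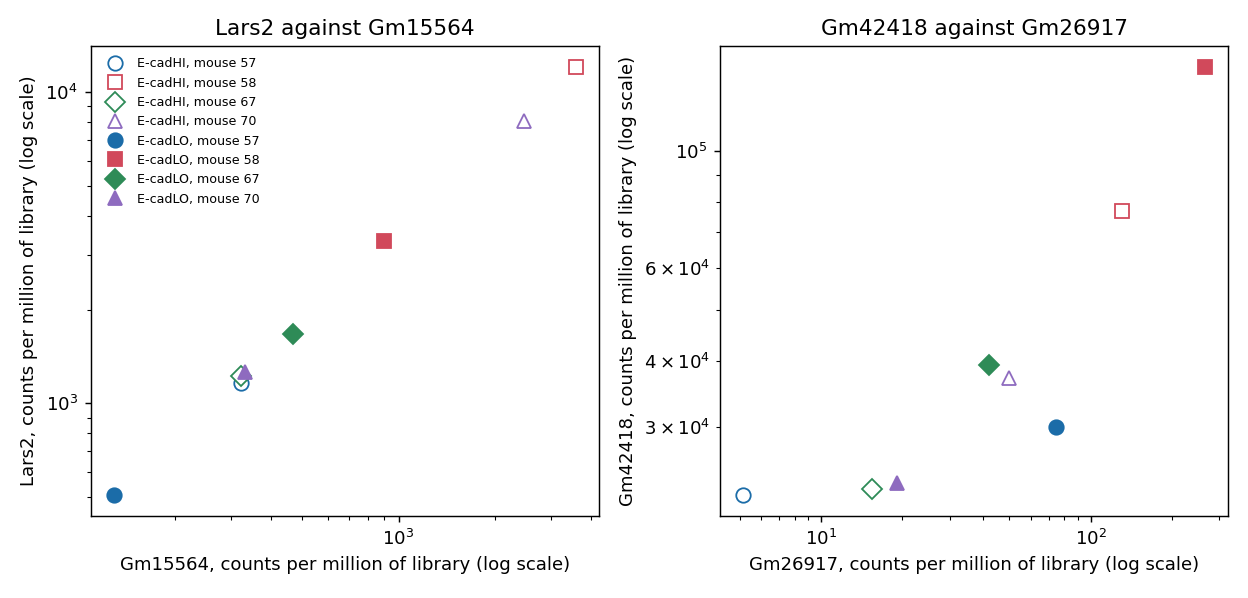
CPM of the library total for Lars2 against Gm15564 (left) and for Gm42418 against Gm26917 (right), both axes on a log scale, open symbols for E-cadHI and filled symbols for E-cadLO. The Lars2 points lie along 1 line (3.27 to 3.95 counts for each count of Gm15564), and the Gm42418 points scatter (401.4 to 4316 counts for each count of Gm26917).

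To compare E-cadLO with E-cadHI, log2 ratios were first taken within each mouse on CPM after TMM scaling. Malat1 had a mean log2 ratio of 0.83 ± 0.55 (SD, n = 4 mice), with 0.37 in mouse 70 and 1.52 in mouse 67 as its extremes. Neat1 had 0.64 ± 0.32, between 0.24 in mouse 58 and 0.99 in mouse 57. Meg3 had 2.42 ± 2.30, between 0.34 in mouse 58 and 5.71 in mouse 57. All 3 were higher in E-cadLO in 4 of 4 mice, and 16.8% of all genes tested were so as well. No member was lower in 4 of 4 mice, as 14.2% of genes were. Gm42418 had 0.32 ± 0.70 and Gm26917 1.19 ± 1.98, each above 0 in 3 mice and below 0 in mouse 70 (-0.58 and -1.30). Lars2 had -1.37 ± 1.27 and was lower in E-cadLO in mice 57, 58 and 70, by 2.83-, 3.42- and 6.08-fold, but 1.31-fold higher in mouse 67. With 4 pairs, an exact two-sided sign-flip test cannot reach a p under 0.05, so none was run.

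**Figure D4:**
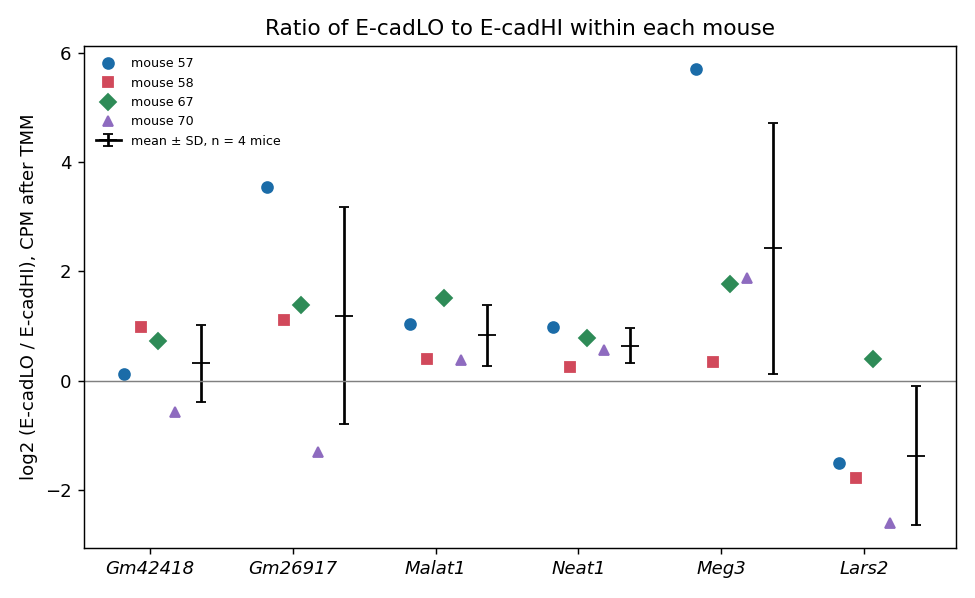
Log2 ratio of E-cadLO to E-cadHI within each of the 4 mice (symbols), on CPM after TMM scaling, with the mean and SD over mice in black. Neat1 has the narrowest spread (0.64 ± 0.32) and Meg3 the widest (2.42 ± 2.30).

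Across all genes, the quasi-likelihood test of edgeR (Benjamini-Hochberg adjusted over all genes) called none of the 6 members, and it called 0% of the 13598 genes in either direction at an adjusted p under 0.05. Before adjustment, 1109 genes with a higher level and 790 with a lower level had a p under 0.05. The log2 fold change of E-cadLO against E-cadHI was 0.58 (SE 0.67, adjusted p = 0.679) for Gm42418 and 0.997 (SE 1.001, adjusted p = 0.631) for Gm26917. It was 0.89 (SE 0.30, adjusted p = 0.301) for Malat1, 0.54 (SE 0.47, adjusted p = 0.573) for Neat1 and 2.08 (SE 0.82, adjusted p = 0.322) for Meg3. For Lars2 it was -1.72 (SE 0.85, adjusted p = 0.387). Without the E-cadLO library of mouse 58, the direction of Gm42418 turned to -0.43 and that of Gm26917 to -0.27.

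The 2 libraries of a mouse share that mouse, and with a replicate block for it edgeR called 99 genes higher (0.728% of those tested) and 0 lower, with 0 of the 6 members among them. The adjusted p was then 0.183 for Malat1, 0.143 for Neat1, 0.219 for Meg3 and 0.194 for Lars2. DESeq2 without the block called 386 genes higher and 43 lower (2.64% and 0.294%) and none of the 5 members it tested. It gave Gm42418 no p. DESeq2 with the replicate block called 7.19% of 14344 genes higher and 1.51% lower. It called Malat1 (log2 fold change 0.84, adjusted p = 0.00924), Neat1 (0.66, adjusted p = 0.0203) and Meg3 (2.17, adjusted p = 0.0486) higher and Lars2 (-1.39, adjusted p = 0.00783) lower. The calls of these 4 genes thus rest on that tool and block together. Gm15564 and Gm23935, whose counts went with those of Lars2, were not called by DESeq2 with the block. Their log2 fold changes there were -1.49 (adjusted p = 0.117) and -1.07 (adjusted p = 0.0661). Gm42418 and Gm26917 were not called (adjusted p = 0.813 and 0.390).

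Markers of other cell types had higher summed levels in most E-cadLO libraries. The summed level of 10 neuron markers was 4.03 to 98.1 CPM in E-cadHI and 25.8 to 386.8 CPM in E-cadLO, and all 10 tested genes had a log2 fold change above 0. The 9 microglia markers summed to 31.3 to 237.3 against 137.6 to 873.6 CPM, and the 7 oligodendrocyte markers to 552 to 8560 against 1311 to 34313 CPM. The 8 astrocyte markers summed to 1142 to 3546 against 721 to 9852 CPM. All 9 microglia and 8 astrocyte markers had a log2 fold change above 0, and 6 of 7 oligodendrocyte markers did. The oligodendrocyte marker Cnp was at -0.08 and was higher in E-cadLO in 1 of 4 mice. The neuron, microglia and oligodendrocyte sums were higher in E-cadLO in 4 of 4 mice and the astrocyte sum in 3. The exception for astrocytes was mouse 57, where Aldoc fell from 1002 CPM in E-cadHI to 123 CPM in E-cadLO. The astrocyte markers Gja1, Gfap, Slc1a2 and Slc1a3 were higher in E-cadLO in 4 of 4 mice. The 6 fibroblast markers summed to 6.30 to 19.3 CPM in E-cadHI, to 1032 CPM in E-cadLO of mouse 57 and to 15.2 to 43.6 CPM in the other E-cadLO libraries. Within mice, the fibroblast sum was higher in E-cadLO in 4 of 4. None of these markers was at 0 in all libraries, and none passed edgeR's test without the block. With the block, edgeR called 3 microglia, 1 neuron, 3 astrocyte and 2 oligodendrocyte markers higher, with 0.728% of all genes called higher. Among these markers was Snap25, a neuronal protein of synaptic vesicle fusion (log2 fold change 2.32, adjusted p = 0.0460). DESeq2 with the block, the fit that called 4 of the members, called 9 microglia, 7 neuron, 6 astrocyte, 6 oligodendrocyte and 2 fibroblast markers higher, with 7.19% of all genes called higher. The 9 markers of tumor epithelium summed to 11327 to 15194 CPM in E-cadHI and 6089 to 16101 CPM in E-cadLO. Of these 9, 2 had a log2 fold change above 0 and 7 below 0, with a median of -0.30 against 0.06 over all genes. None was called by edgeR with or without the block, or by DESeq2 with the block. The 6 endothelium markers summed to 40.9 to 74.5 against 42.4 to 93.8 CPM, and the 6 neutrophil markers to 15.7 to 25.2 against 9.39 to 26.8 CPM. The endothelium sum was higher in E-cadLO in 4 of 4 mice and the neutrophil sum in 3.

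Meg3 was highest in the E-cadLO library of mouse 70, where the neuron, microglia, astrocyte, oligodendrocyte and endothelium sums were all highest. It was next in that of mouse 57, where the fibroblast sum was highest and the neuron sum was 25.8 CPM. The part of such cells in the levels of Meg3, Malat1 and Neat1 was not tested. In bulk libraries, a change in the number of cells of a type and a change in RNA per cell cannot be told apart.

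**Figure D5:**
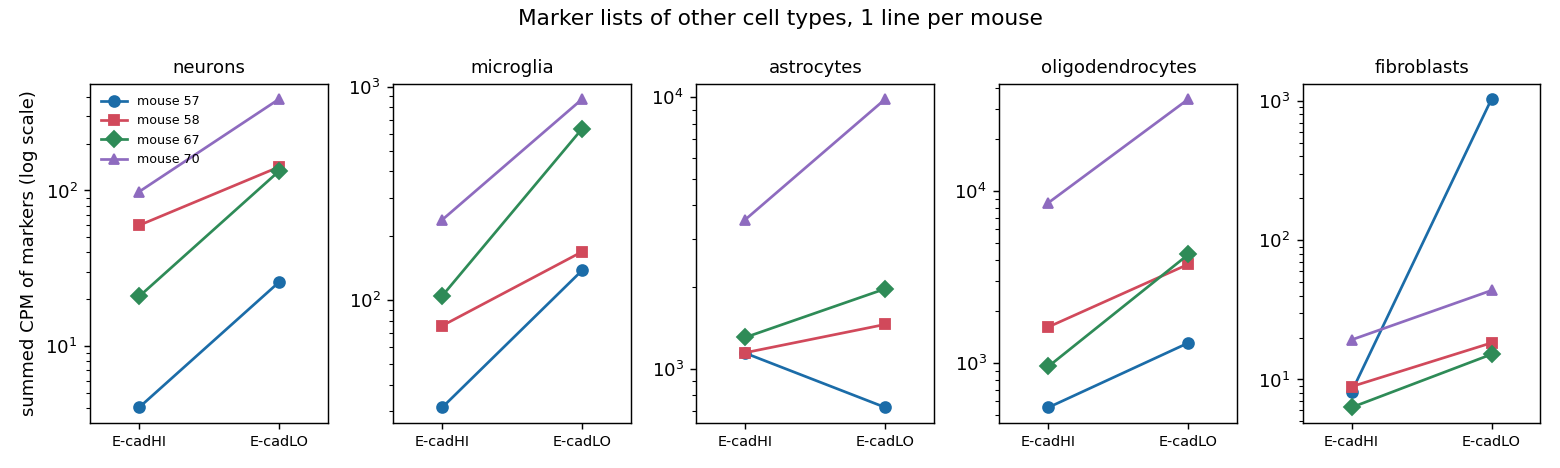
Summed CPM after TMM scaling (log scale, a separate axis range per list) of marker genes of neurons, microglia, astrocytes, oligodendrocytes and fibroblasts in E-cadHI and E-cadLO, with 1 line per mouse. Mouse 70 is highest for the 4 brain cell lists, and the E-cadLO library of mouse 57 stands at 1032 CPM for fibroblasts.

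The genes most like each member over the 8 libraries were found by Pearson r of log2 CPM, as a description without a test. For Gm42418 they were Ddr1, a collagen receptor kinase (0.983), Zbtb42 (0.972) and Ccdc97 (0.960), and for Gm26917 they were Dagla, a diacylglycerol lipase (0.985), Arhgef17 (0.965) and Klhl21 (0.961). Ddr1 was highest in both libraries of mouse 58, at 62.4 CPM in E-cadHI and 87.6 CPM in E-cadLO. For Malat1 they were Myh10, a nonmuscle myosin heavy chain (0.979), Tnrc6a, a protein of microRNA silencing (0.979), and Cblb, a ubiquitin ligase (0.971). For Neat1 they were Gm16091 (0.950), A130051J06Rik (0.938) and Gm26762 (0.937). For Meg3 they were the transporter Abcc5 (0.992), the EMT transcription factor Zeb2 (0.978) and Tacc1 (0.969). Zeb2 had 0.0695, 4.37, 1.78 and 15.1 CPM in E-cadHI and 39.9, 9.97, 14.7 and 74.2 CPM in E-cadLO of mice 57, 58, 67 and 70. In E-cadHI of mouse 57, Abcc5 and Zeb2 (both 0.0695 CPM) and Meg3 (2 counts) were below the limit of 3 counts. The r of Abcc5 and Zeb2 thus rest in part on a library where these genes were barely detected. Zeb2 was highest in E-cadLO of mouse 70, as were the neuron, microglia, astrocyte and oligodendrocyte sums. Which cells it came from was not tested. All these libraries share their depth and mouse of origin with the members, and the highest of many correlations over 8 libraries is high by selection.

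Genes with related roles were counted in lists. Of 27 nuclear long noncoding RNAs, 19 were tested, and 16 had a log2 fold change above 0, with a median of 0.30 against 0.06 over all genes, of which 55.1% were above 0. Malat1, Neat1 and Meg3 are part of this list. Among its abundant genes, Gas5, a host of small nucleolar RNAs, had 0.19 (SE 0.21), Tug1 had -0.14 (SE 0.28) and Kcnq1ot1, the antisense RNA of an imprinted domain, had 0.15 (SE 0.41). None of the 19 passed edgeR's test with or without the block, and 5, Malat1, Neat1 and Meg3 included, were called higher by DESeq2 with the block, where 7.19% of all genes were. Of the 8 genes of the Dlk1-Dio3 imprinted cluster, in which Meg3 lies, 2 were tested, Meg3 and Begain, and both had values above 0 (Begain 1.52, SE 1.07, edgeR adjusted p = 0.508). Rian, a further noncoding RNA of the cluster, had a mean of 1.03 CPM.

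The proteins that act with Neat1 and Malat1 lay near the median of all genes. Of 20 paraspeckle proteins, 7 had a log2 fold change above 0 and 13 below 0 (median -0.11). Nono, a core paraspeckle protein, had -0.38 (SE 0.20) and Matr3, a nuclear matrix protein, 0.29 (SE 0.17). Of 20 nuclear speckle proteins, 12 were above 0 and 8 below 0 (median 0.04), and the speckle scaffold Son had 0.12 (SE 0.16). None of these genes passed edgeR's test, and 1 of the 20 speckle proteins was called higher by DESeq2 with the block, where 7.19% of all genes were.

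Genes that make ribosomal RNA were counted beside Gm42418. Of 26 genes of RNA polymerase I and ribosome biogenesis, 10 were above 0 and 16 below 0 (median -0.11), and none passed edgeR's test or DESeq2 with the block. Npm1, nucleophosmin, had -0.26 (SE 0.23) and Ncl, nucleolin, had -0.25 (SE 0.19). Of 28 listed genes of other RNAs without a poly(A) tail, 16 were among the genes counted, and the rest were not measured. Those counted were mostly near the limit of detection, and 3 were tested, all above 0 and none called. The largest was Rn7sk, the small nuclear RNA that holds back the elongation factor P-TEFb. It had 4.31, 22.9, 4.37 and 25.4 CPM in E-cadHI and 42.4, 74.1, 93.1 and 17.2 CPM in E-cadLO of mice 57, 58, 67 and 70 (log2 fold change 1.99, SE 0.71, edgeR adjusted p = 0.303). Like Gm42418, Rn7sk was higher in E-cadLO in mice 57, 58 and 67 and lower in mouse 70.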

How the data were processed

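The authors deposited whole-number counts per gene and library, without normalization, made from TruSeq mRNA libraries read as single reads, mapped with Hisat (HISAT2 2.1.0 in the submitters' processing notes) to GRCm38 and counted with Icount in the methods or HTSeq in the notes. Every count column was used (8), and 365 rows that name no gene, 0.0636% to 0.0954% of a library, were set aside. The 7 members and the 16 gene lists were chosen with earlier results of these data known. Shares are counts over the library total (31894 genes) with 95% Wilson intervals.

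Groups were compared in edgeR 4.0.16 (R 4.3.3) by TMM, filterByExpr by group and the quasi-likelihood test on all 8 libraries without a block, as the study's methods name none, with Benjamini-Hochberg adjustment over 13598 genes and a threshold of 0.05. DESeq2 1.42.0, other scalings and filters, a robust fit, the replicate block and each mouse or library left out were alternatives, the single libraries added after the values were seen. Libraries of the same mouse come from 1 animal and deviated together (r = 0.248 to 0.692, other pairs at most 0.144), so the numbers pair the libraries. The pairing enters the within-mouse ratios and the fits with the block, and the main test is unpaired. CPM in the fits, lists and ratios are after TMM, and the CPM of Gm26917, Neat1 and Meg3 by library and CPM per kb use the library total, with the exon union of GENCODE M21. Named genes are the members, the 3 genes with the highest r per member (log2 CPM, prior count 2), up to 5 genes per list by mean CPM, overlapping genes and the 5 leading genes of each library. Rn7sk, Gm15564, AA474408 and Cdh1 were looked up by symbol. Sequences were read from GENCODE M21 transcripts (GRCm38). Scripts were tested on simulated data. Python 3.11.15, pandas 2.3.3, scipy 1.17.1 and matplotlib 3.10.9 were used.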

Additional observations from a re-analysis of the deposited data

Results flagged for a closer look

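In groups of 4 libraries, a library was marked where its gap to the next exceeded Dixon's 95% critical value, as a part of the group's range. This held in 6 of 38 groups or ratio sets. The critical value marks about 1 in 20 sets by chance only where values are normal and sets are independent. The marked shares and sums were not on a log scale, and sets from the same mice are not independent. The count of marks therefore does not measure an excess over chance. Gm42418 was marked in E-cadLO, where mouse 58 had 14.4% of the counts and the other mice 2.35% to 3.93%, but the gene was picked on these shares, so this is a description. The other 5 were sums of cell type markers, all in CPM after TMM scaling. Mouse 70 was marked for astrocyte markers in E-cadHI (3546 CPM, others 1142 to 1306) and in E-cadLO (9852 CPM, others 721 to 1972), and for oligodendrocyte markers in E-cadHI (8560 CPM, others 552 to 1622) and in E-cadLO (34313 CPM, others 1311 to 4286). Mouse 57 was marked for fibroblast markers in E-cadLO (1032 CPM, others 15.2 to 43.6).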

How the results depend on the processing

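The count of genes called higher in E-cadLO went from 0 to 23 with no filter, 99 with the replicate block, 386 with DESeq2 and 1031 with DESeq2 and the replicate block, and the count called lower from 0 to 43 with DESeq2 and 216 with DESeq2 and the block. With each mouse or library left out it ranged from 0 to 13 higher, the 13 without the E-cadLO library of mouse 70. Other alternatives gave 0. With DESeq2 and the replicate block, Malat1 (0.84), Neat1 (0.66), Meg3 (2.17) and Lars2 (-1.39) passed the threshold, and the cause was not tested. The edgeR fit with the replicate block changed no call of a member. Leaving out libraries moved the log2 fold change of Gm42418 between -0.43 and 1.09 and that of Gm26917 between -0.27 and 2.06, both reversed only without the E-cadLO library of mouse 58. Malat1 (0.54 to 1.08), Neat1 (0.27 to 0.98), Meg3 (1.55 to 2.66) and Lars2 (-2.32 to -1.07) kept their direction in these. Of 125 values of the 6 members under alternatives, 118 kept direction and side of the threshold, and Gm42418 under DESeq2 had no adjusted p. The mean log2 ratio within mice of Meg3 went from 2.42 to 1.33 without mouse 57, that of Gm26917 from 1.19 to 0.40 without mouse 57 and 2.02 without mouse 70, and that of Gm42418 from 0.32 to 0.09 without mouse 58, 0.18 without mouse 67 and 0.61 without mouse 70. Meg3 was dropped at a minimum of 10 counts in every library, and AY036118 gave no value. The 2 to 147 counts of Meg3 limit its ratios.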

Other observations

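RNAs of the mitochondrial genome were a further abundant group. Of its 15 genes, 11 were tested and all 11 had a log2 fold change above 0 (median 0.48), as 55.1% of all genes did. The direction was not the same in every mouse. The summed level was lower in E-cadLO in mouse 57 (15795 against 18151 CPM after TMM scaling) and higher in the other mice. Of the most abundant genes, mt-Cytb and mt-Nd1 were higher in E-cadLO in 2 mice, mt-Co1 and mt-Rnr1 in 3 and mt-Rnr2 in all mice. None of the 11 passed edgeR's test with or without the block. DESeq2 with the block called 2 of them higher, with 7.19% of all genes called higher. These 2 were the ribosomal RNAs mt-Rnr1 (1.40, adjusted p = 0.00269) and mt-Rnr2 (0.94, adjusted p = 0.00545). mt-Rnr2 took 0.454%, 1.44%, 0.293% and 1.13% of the E-cadHI libraries and 0.662%, 2.82%, 0.999% and 1.70% of the E-cadLO libraries of mice 57, 58, 67 and 70, and like Gm42418 it was highest in both groups in mouse 58.

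Among the members, the Pearson r of log2 CPM over the 8 libraries was 0.86 for Gm42418 with Gm26917, 0.73 for Malat1 with Neat1 and -0.11 for Malat1 with Lars2, given as a description without a test. Gm23935 went with Lars2 less closely than Gm15564 did, at 20.9 to 33.7 counts of Lars2 for each of its counts.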
